A study of Mus musculus with 2 samples.

Results

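*Cd24a*, the gene of a small cell surface glycoprotein, was followed across the cell types and regions of 1 control and 1 *Dnmt1* knockout (KO) section of the embryonic mouse brain. It is 1 of the 500 genes of the probe panel and was chosen by measured values, because its ratio of KO over control was the highest of the well-detected panel genes in the pallial region, the developing cortex. That ratio is therefore given as a description, and nothing here tests it. Expression had been measured by MERFISH, in which single RNA molecules are identified in tissue by barcodes read over rounds of fluorescence imaging. The study asked how the loss of *Dnmt1*, the maintenance DNA methyltransferase, in *Sst*-expressing interneurons affects these cells and the cortex around them.

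Both sections were coronal, 10 µm thick and taken at E16.5 from whole heads that had been flash-frozen. The control was *Sst-Cre/tdTomato*, from the strains Ssttm2.l(cre)Zjh/J and B6.CgGt(ROSA)26Sortm14(CAG-tdTomato)Hze. The KO carried the same Cre and reporter alleles together with the loxP-flanked *Dnmt1* allele of B6; 129S-Dnmt1tm2Jae/J, a genotype written *Sst-Cre/tdTomato/Dnmt1 loxP2*. Cre is made only where *Sst* is expressed, so the allele is meant to recombine in cells that have or had *Sst* and to stay intact in the projection neurons, glia and vessels around them. Neither *Dnmt1* nor tdTomato is among the panel genes, so recombination could not be checked. Each genotype was measured in a single section. No test was therefore run, intervals in parentheses are 95% intervals of counting error only, and genotype, animal and imaging run cannot be told apart.

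The CD24 protein is a short peptide held in the outer leaflet of the plasma membrane by a glycosylphosphatidylinositol (GPI) anchor and carries a dense coat of glycans. It takes part in cell adhesion through partners that include the neural adhesion molecule L1CAM, P-selectin and siglecs. In the developing brain it is known from differentiating and migrating neurons and from ependymal cells, and outside the brain from blood cell precursors and epithelia. The molecule lists name the transcript ENSMUST00000058714. In GENCODE M39 on GRCm39 this transcript lies on the plus strand of chromosome 10 from 43455163 to 43460261 and has 2 exons, from 43455163 to 43455318 and from 43458600 to 43460261. Of its 1818 bases, 231 are coding (12.7%), and a 3′ UTR of 1500 bases makes up most of the rest. The coding sequence is shown because it is the whole of the protein-coding target, with the start and stop codons in capitals:
Cd24a coding sequence: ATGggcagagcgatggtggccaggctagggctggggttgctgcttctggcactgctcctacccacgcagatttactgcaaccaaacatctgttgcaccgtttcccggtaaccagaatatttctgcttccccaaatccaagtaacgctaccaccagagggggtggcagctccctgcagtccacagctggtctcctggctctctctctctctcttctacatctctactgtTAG

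It codes for 76 residues before processing. A search of the genome with the transcript found 3 other places that align over more than 50% of it. The closest, the processed pseudogene *Gm6212* on chromosome 14, covers 99.7% of the transcript at 96.2% identity, and the other two, *Gm15352* and *Gm34023*, have identities of 87.0% and 89.4%. The probe sequences were not used here, so it is not known whether the count includes molecules of these copies.

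The control section held 108533 segmented cells and the KO section 110004, with 2842355 and 13437174 panel transcripts. A median cell held 20 transcripts in the control and 101 in the KO, and the minimum of 20 transcripts used below was reached by 50.9% and 92.0% of cells. Levels are therefore scaled to 1000000 panel transcripts of the same cells (CPM), and ratios are given as log2 of KO over control. The mean level of the 50 blank barcodes, which match no gene, was 99.7 CPM in the control and 97.8 CPM in the KO.

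In cells over the minimum, 13797 *Cd24a* transcripts were counted in the control and 353682 in the KO. The level was 5946 CPM (5847 to 6046) in the control and 26420 CPM (26333 to 26507) in the KO, a 4.44-fold difference and a log2 ratio of 2.15 (2.12 to 2.18). *Cd24a* thus took 0.595% of all panel transcripts in the control and 2.64% in the KO. Counted per cell volume and not per panel transcript, the log2 ratio was 4.20. That scale also holds the difference in all panel transcripts, whose median per cell over the minimum was 34 in the control and 109 in the KO. Over all segmented cells, *Cd24a* counts were 22.5 times those of the highest blank barcode in the control and 110 times in the KO. The fullest single cell held 8 *Cd24a* transcripts in the control and 87 in the KO.

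Of the 500 panel genes, 22 (4.4%) had a whole-section log2 ratio of 1 or more, and the median gene had 0.13. *Cd24a* had the highest ratio of the more abundant genes, those whose mean CPM reached the median gene's. Next in that order was *Epha3*, the gene of an ephrin receptor, with a log2 ratio of 1.83 (1.77 to 1.89). The transcription factor gene *Foxp2* followed with 1.48, and then *Gpr161*, the gene of a ciliary G protein-coupled receptor, with 1.40. *Nkain3* had 1.38 and the potassium channel gene *Kcnk2* 1.38.

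The brain was divided into places by the local share of region genes, without *Cd24a*. In the control, *Cd24a* was highest in the pallial region, at 10442 CPM (10162 to 10728), and lower in the subpallial area, which held 98.2% (control) and 98.5% (KO) of direct-pathway striatal neuron-like cells, at 8653 CPM (8408 to 8904). In the remaining brain, where *Slc17a6* and its companions outweighed subpallial genes and where 81.1% (control) and 72.9% (KO) of radial glia or astroglia-like cells and 50.7% and 41.0% of ganglionic eminence progenitor-like cells also lay, it was 5300 CPM (5117 to 5488). Outside the brain outline, in the other tissue of the head, it was 995 CPM (921 to 1073). The KO section had the same order, with 45511 CPM (45281 to 45742), 32821 CPM (32636 to 33006), 21579 CPM (21424 to 21735) and 2940 CPM (2879 to 3003). No neighbouring pair of places overlapped in its intervals in either section.

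**Figure D1:**
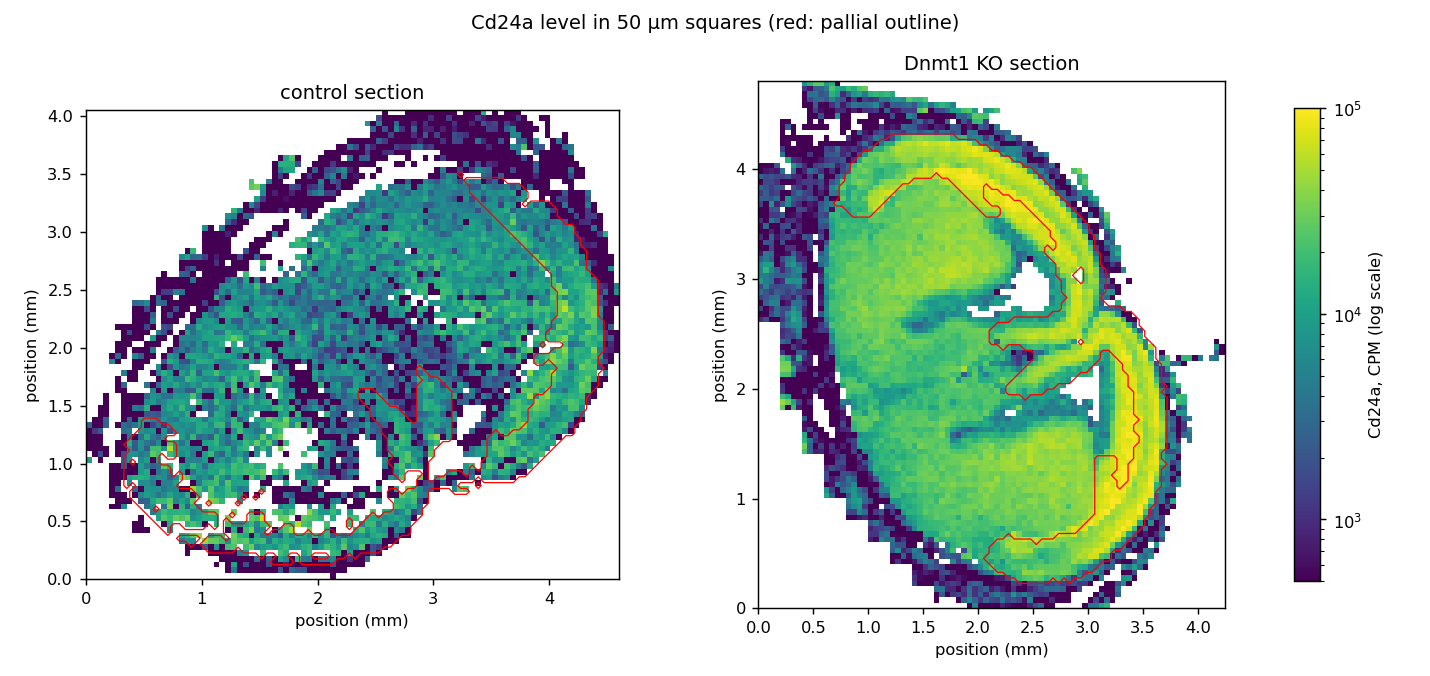
*Cd24a* level in 50 µm squares of the control (left) and *Dnmt1* KO (right) section, as CPM on a log colour scale shared by both and capped at 500 and 100000 CPM, with positions in mm and the pallial outline in red. Squares with under 100 transcripts are blank. The pallial region is the brightest place of either section, and the tissue outside the brain the darkest.

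The log2 ratio was 2.12 (2.08 to 2.17) in the pallial region, 1.92 (1.87 to 1.97) in the subpallial area, 2.03 (1.96 to 2.09) in the *Slc17a6* area and 1.56 (1.42 to 1.70) outside the brain outline. The interval outside the brain lay below those of the other places, and *Cd24a* there ranked 3 of 454 genes with at least 30 counts in each section. Of the 454 such genes in the pallial region, 17 had a log2 ratio of 1 or more (3.74%), against 19 of 498 in the rest of the brain (3.82%), where *Cd24a* had 1.99 (1.95 to 2.03).

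Within the pallial region both hemispheres of a section were alike by comparison. The control hemispheres measured 9702 CPM (9198 to 10225) and 10737 CPM (10401 to 11080), and those of the KO 45177 CPM (44845 to 45510) and 45819 CPM (45499 to 46140). The 4 pairings of single hemispheres had log2 ratios between 2.07 and 2.24. In squares of 100 µm that held at least 500 transcripts, the median level was 9556 CPM over 277 control squares and 46206 CPM over 369 KO squares. Of the KO squares, 235 lay above the highest control square, which reached 33426 CPM. Conversely, 264 of the control squares lay above the lowest KO square, at 1584 CPM, so that the sections overlapped in part.

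Across the thickness of the pallial region, *Cd24a* was lowest at the surface in both sections. In the outermost of 10 depth bins, at the pial side, it was 7119 CPM (6286 to 8032) in the control and 23359 CPM (22757 to 23973) in the KO. The KO level then peaked in the third bin at 55972 CPM (55217 to 56734), dipped to 41411 CPM in bin 7 and ended at 50620 CPM in the innermost. The control was flatter, between 9835 CPM in bin 6 and 12168 CPM in bin 8 once the outermost bin was left aside. The log2 ratio was lowest in the outermost bin, 1.71 (1.50 to 1.93), and highest in the third, 2.35 (2.22 to 2.49).

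**Figure D2:**
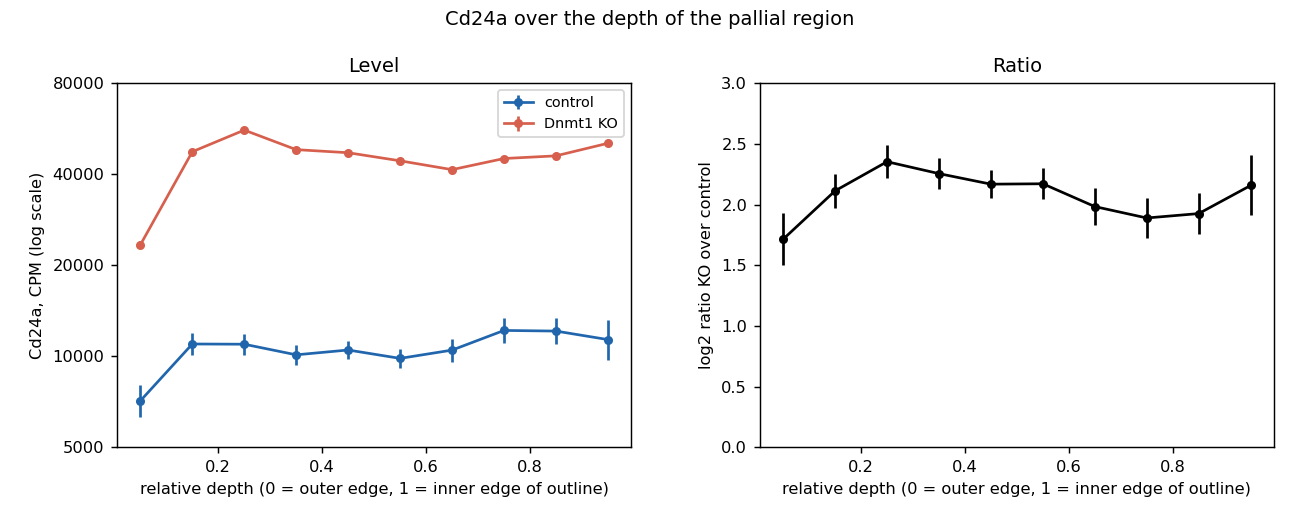
*Cd24a* over relative depth of the pallial region, as level in CPM on a log axis (left; control blue, KO orange) and as log2 ratio KO over control (right), with 95% intervals of counting error. In both sections the outermost bin is lowest, and the ratio lies above 1.5 in every bin.

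The inner of 3 equal zones of the depth had 11710 CPM (11045 to 12405) in the control against 10259 CPM (9788 to 10747) in the outer zone, whereas the KO had 45703 CPM (45228 to 46182) and 45557 CPM (45159 to 45957). The control difference was a log2 ratio of inner over outer of 0.19 (0.04 to 0.34). In cells with 20 to 50 transcripts it was −0.07 (−0.25 to 0.11), an interval that holds 0. In single control hemispheres it was 0.27 (−0.02 to 0.56) and 0.15 (−0.02 to 0.33), which hold 0 as well. The outline follows *Tbr1*, *Fezf2*, *Slc17a7* and *Nr4a2* of cortical neurons, together with *Eomes* of intermediate progenitors. Its inner edge is not taken as the ventricular surface: 26.5% of upper-layer or immature projection neuron-like cells of the KO and 19.0% of those of the control lay in the *Slc17a6* area.

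Cells were placed in classes by their marker counts, *Cd24a* not among them, and are named "-like" for those markers. Of the cells over the minimum, 46.3% in the control and 16.6% in the KO passed no class. The class rule asks for at least 3 marker transcripts, which deeper cells hold more often. These unplaced cells had 6235 CPM (6074 to 6398) in the control and 22753 CPM (22519 to 22989) in the KO. In total, 17 classes held at least 50 cells and 30 *Cd24a* counts in each section. Cells with *Eomes* and *Sstr2* rested on 2 markers and on 19 control counts of *Cd24a* and are left unnamed and out of the comparison. Ependymal cells, known for *Cd24a*, could not be named, since 1 of their markers was on the panel.

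Upper-layer and deep-layer projection neuron classes of the cortex had the highest levels, although the deep-layer class and the direct-pathway striatal class below it overlapped in the control. Upper-layer or immature projection neuron-like cells, whose markers include *Cux2*, *Unc5d* and *Pou3f2*, had 17820 CPM (17089 to 18575) in the control and 74932 CPM (74402 to 75465) in the KO. Deep-layer projection neuron-like cells, marked by *Tbr1* and *Fezf2*, had 10912 CPM (10400 to 11442) and 49235 CPM (48848 to 49625). Subplate or *Slc17a7* cortical neuron-like cells, marked by *Nr4a2* and *Slc17a7*, lay well below both, at 5856 CPM (5089 to 6706) and 22924 CPM (22438 to 23418). Both of the latter intervals lay below those of the deep-layer class.

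Classes of GABAergic cells from the subpallium lay in the upper and middle part of the order. Direct-pathway striatal neuron-like cells had 10116 CPM (9517 to 10743) in the control and 36055 CPM (35751 to 36361) in the KO, and indirect-pathway striatal neuron-like cells 7358 CPM (6197 to 8672) and 32339 CPM (31727 to 32960). Interneuron-like cells of the medial ganglionic eminence (MGE), marked by *Lhx6*, had 7358 CPM (6932 to 7804) and 29181 CPM (28879 to 29486). In the KO these 3 classes stood apart from one another, whereas in the control the intervals of the indirect-pathway and MGE classes overlapped. Those of the caudal ganglionic eminence (CGE), marked by *Sp8* and *Prox1*, were counted less well, with 5970 CPM (4472 to 7809) and 23572 CPM (22857 to 24304). The CGE class may be mixed, as its leading 10 genes in the KO included *Trpc4* and *Onecut2*, markers of the subcortical glutamatergic class. Of its cells, 33.1% (control) and 47.4% (KO) lay in the *Slc17a6* area and 17.5% and 14.0% outside the brain outline. Ganglionic eminence progenitor-like cells, whose markers include *Dlx1* and *Top2a*, had 4634 CPM (4080 to 5243) and 22592 CPM (22251 to 22937).

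Neurons of other places were of a similar middle rank. Subcortical glutamatergic neuron-like cells, whose markers include *Onecut2*, *Trpc4* and *Slc17a6*, had 5930 CPM (5150 to 6796) and 21242 CPM (20881 to 21607). Their make-up differed between the sections: *Slc17a6* stood right behind *Onecut2* among their leading genes in the control, but near the end of the leading 10 in the KO, where *Pnoc* and the CGE marker *Sp8* stood above it. Ventral forebrain neuron-like cells, marked by *Irs4* and *Calcr*, had 5041 CPM (3601 to 6864) and 17312 CPM (16807 to 17828). Cajal-Retzius cell-like cells, named for the *Reln*-secreting neurons of the marginal zone, were low for neurons, with 2170 CPM (1726 to 2694) and 12220 CPM (11760 to 12692). Of this class, 42.8% (control) and 51.9% (KO) lay in the pallial region and 37.6% and 21.6% outside the brain outline. Its marker *Ebf3* was also among the leading 10 genes of the mesenchymal class in the control. Inside the brain it had 2477 CPM (1899 to 3175) and 13056 CPM (12523 to 13605), a log2 ratio of 2.40 (1.98 to 2.84).

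Over all cells of a class, glial, vascular and connective classes were lowest in the KO. In the control they shared the bottom of the order with the Cajal-Retzius class. Radial glia or astroglia-like cells, marked by *Hopx* and *Aldoc*, had 2477 CPM (2242 to 2729) in the control and 9892 CPM (9688 to 10099) in the KO. Oligodendrocyte precursor-like cells had 2483 CPM (2084 to 2938) and 9046 CPM (8756 to 9344), and endothelial cell-like cells 2260 CPM (1883 to 2691) and 9405 CPM (9120 to 9698). These 3 classes overlapped in the control. Microglia or macrophage-like cells had 1639 CPM (1254 to 2105) and 8070 CPM (7675 to 8479), and mural cell-like cells 1078 CPM (777 to 1458) and 5447 CPM (5202 to 5702). Mesenchymal cell-like cells, marked by *Dcn*, closed the order with 568 CPM (487 to 658) and 1603 CPM (1543 to 1666). The top class stood 31.4-fold above the bottom class in the control and 46.7-fold in the KO, log2 folds of 4.97 and 5.55. In both sections over 95% of mesenchymal cell-like cells lay outside the brain outline, and the few inside it had 1012 CPM (505 to 1811) in the control and 2162 CPM (1820 to 2550) in the KO. With cells of the brain alone the mesenchymal class dropped out for too few counts, and the log2 folds, now over the Cajal-Retzius class in the control and the radial glia class in the KO, were 2.88 and 2.90. The order also changed there. In the KO, the microglia class, at 19592 CPM, and the oligodendrocyte precursor class, at 19186 CPM, lay above ventral forebrain neuron-like cells, at 17524 CPM (17004 to 18055). The mural class, at 14315 CPM, and the endothelial class, at 13611 CPM, overlapped the Cajal-Retzius class, at 13056 CPM (12523 to 13605). In the control the intervals of these pairs overlapped.

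**Figure D3:**
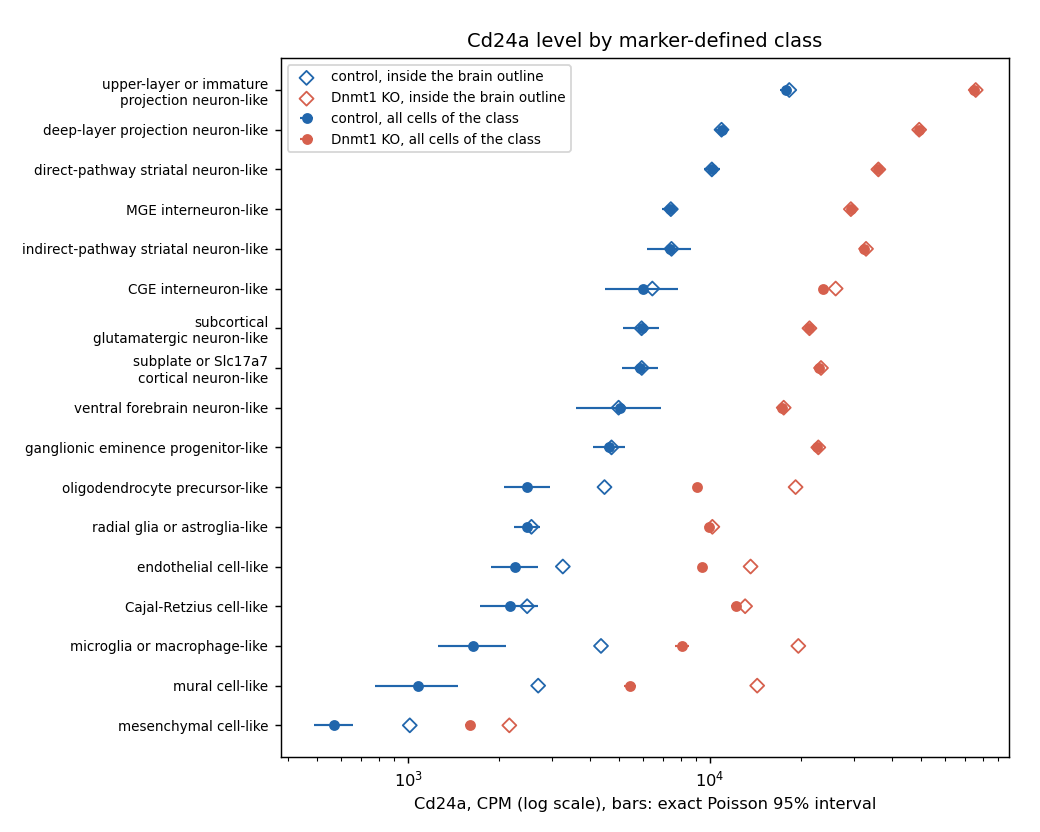
*Cd24a* level of 17 marker-defined classes as CPM on a log axis (control blue, KO orange), with exact Poisson 95% intervals for all cells of a class (filled) and the value of its cells inside the brain outline (open). Every class is higher in the KO, and cortical projection neuron classes are highest in both sections.

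Neighbours in this order often did not differ beyond counting error. In the control, 12 of the 16 neighbouring pairs of classes overlapped in their intervals, and the breaks came below the upper-layer class, below the direct-pathway class, below the ganglionic eminence progenitors and above the mesenchymal class. In the more deeply counted KO, 4 of 16 pairs overlapped. Across the 17 classes, the Spearman rho of control and KO levels was 0.963, a description over classes that share a section, its depth and the markers that define them.

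The ratio of KO over control was above 0 in each class. The intervals of the lowest and highest class ratio did not overlap in the main setting. These ends were picked as the extremes of the 17 classes, and the interval of their distance makes no allowance for that choice. The median ratio over the 17 classes was 1.998, with an SD of 0.24, and the ratio was 1 or more in 17 of 17. The lowest was that of mesenchymal cell-like cells, 1.50 (1.23 to 1.77), and the highest that of Cajal-Retzius cell-like cells, 2.49 (2.13 to 2.88), 0.996 apart (0.352 to 1.65). That distance was 0.593 with cells of the brain alone, and 0.496 in cells with 20 to 50 transcripts, where 12 classes were left, and the interval of either held 0. With the KO thinned to the depth of the control it was 1.11 (−0.27 to 2.50), which holds 0 as well. It was 1.52 with counts per cell volume, 1.23 with scaling to the median gene, 1.18 with a minimum of 50 transcripts and 1.13 with the stricter class rule. The whole-section ratio lay within the interval of 12 classes. The other 5 had intervals below it: upper-layer or immature projection neuron-like cells with 2.07 (2.002 to 2.14), MGE interneuron-like cells with 1.99 (1.89 to 2.09), subcortical glutamatergic neuron-like cells with 1.84 (1.62 to 2.07), direct-pathway striatal neuron-like cells with 1.83 (1.73 to 1.93) and the mesenchymal class. The ratio inside the brain, 2.05 (2.02 to 2.08), lay within the upper-layer, MGE and subcortical intervals. With the classes also limited to cells of the brain, it lay below the intervals of 2 classes. These were the deep-layer class, 2.09 to 2.26, and the ganglionic eminence progenitor class, 2.07 to 2.48. The Cajal-Retzius interval inside the brain, 1.98 to 2.84, held it. With scaling to the median gene, the upper-layer class had 2.45 (2.38 to 2.52), above the whole section with 2.08 (2.05 to 2.11). The MGE interval, 1.92 to 2.12, then held the whole-section value, as did the subcortical one, 1.80 to 2.25.

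Among the remaining classes, deep-layer projection neuron-like cells had 2.17 (2.09 to 2.25) and ganglionic eminence progenitor-like cells 2.29 (2.09 to 2.49). Radial glia or astroglia-like cells, which rank low in level, had 1.998 (1.83 to 2.17), and endothelial cell-like cells 2.06 (1.76 to 2.36). Some class ratios moved with the processing. The Cajal-Retzius ratio, the highest in the main setting, was 2.07 (1.53 to 2.64) with the stricter class rule. With scaling to the median gene it was 2.08 (1.71 to 2.46). The endothelial ratio was 1.40 (0.98 to 1.82) with the KO thinned to the depth of the control. With every cell assigned by the likelihood of its counts, the ratio of microglia or macrophage-like cells was 1.49 in place of 2.30, and that of mural cell-like cells 1.69 in place of 2.34. With a minimum of 50 transcripts, the ratio of oligodendrocyte precursor-like cells was 2.57 in place of 1.87. Class ratio and control level had a Spearman rho of −0.16 over the 17 classes, given as a description.

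**Figure D4:**
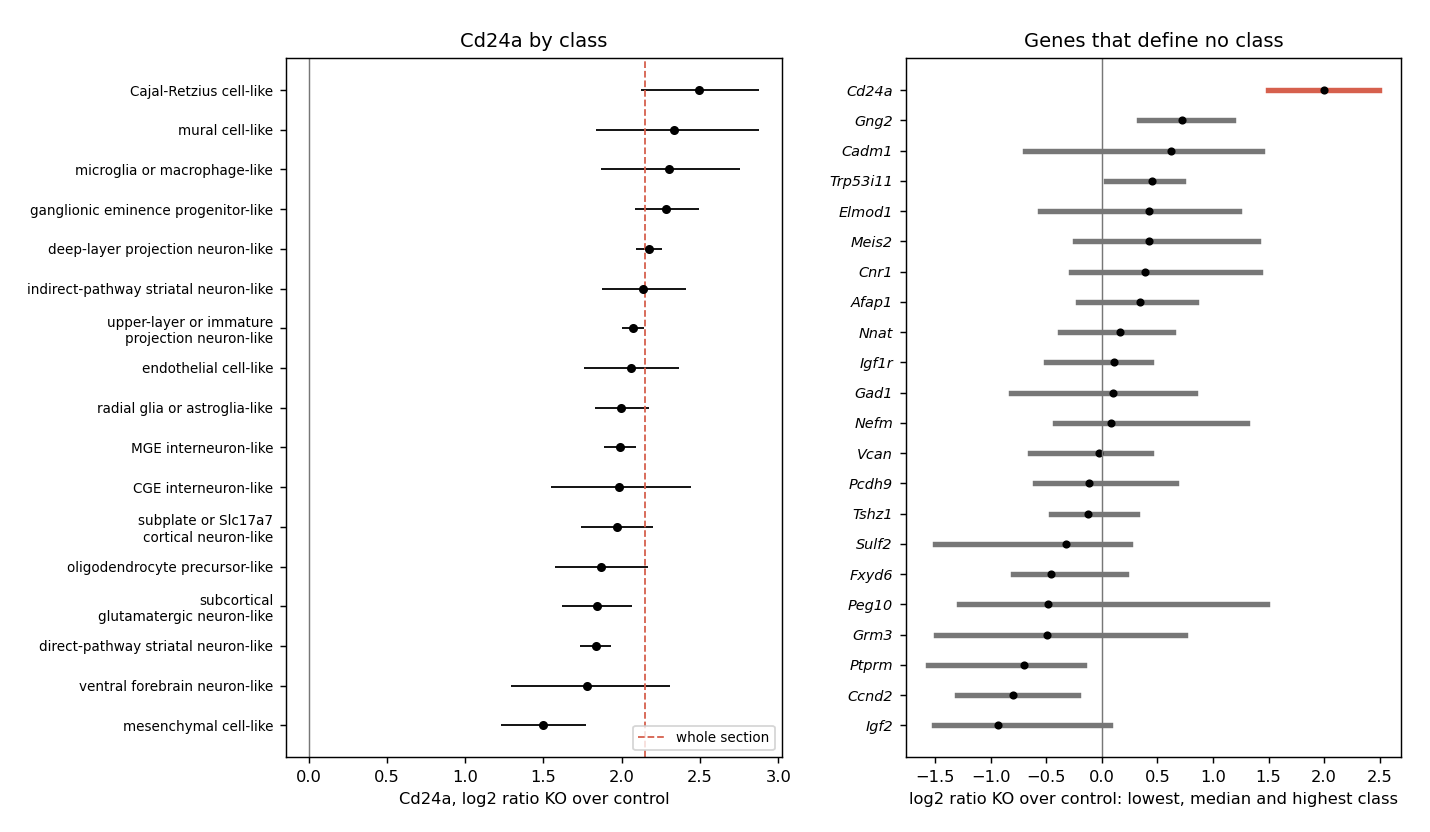
Left, log2 ratio KO over control of *Cd24a* in 17 marker-defined classes with 95% intervals of counting error, the dashed line marking the whole section. Right, lowest, median (point) and highest class ratio of the 22 panel genes that define no class and have at least 30 counts in every class of both sections, with *Cd24a* in orange. The classes of *Cd24a* span 1.50 to 2.49, while the medians of the other genes lie below 1.

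The other panel genes that could be followed in every class give the background. Of 22 genes, *Cd24a* included, that define no class and had at least 30 counts in each class and section, 1 (4.55%) had a log2 ratio of 1 or more in every class, and that gene was *Cd24a*. As *Cd24a* was chosen for its high ratio, this count was largely set by the choice and is a description only. The SD of the class ratios of *Cd24a* was the fifth smallest, 0.24 against a median of 0.37 and a range from 0.18 to 0.65. The 4 genes that varied less over classes were *Trp53i11*, *Gng2*, *Afap1* and *Tshz1*, whose class medians were 0.45, 0.72, 0.35 and −0.12. These genes were chosen after their values were seen.

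Several classes lay partly outside the brain, where each class that could be measured on both sides of the outline had its lower level. Microglia or macrophage-like cells were outside the outline in 59.4% of cases in the control and 58.1% in the KO. For oligodendrocyte precursor-like cells this share was 38.8% and 59.3%, and their log2 ratio was 1.87 (1.58 to 2.17) over all cells and 2.10 (1.79 to 2.42) inside the brain. Inside the brain the level of microglia or macrophage-like cells was 4350 CPM (3277 to 5662) and 19592 CPM (18580 to 20645), and outside it 244 CPM (89.6 to 531) and 1331 CPM (1135 to 1552). Mural cell-like cells had 2694 CPM (1818 to 3846) and 14315 CPM (13572 to 15088) inside, and 431 CPM (223 to 754) and 1883 CPM (1714 to 2065) outside. Both classes were thus lower outside the brain in either section, with intervals that do not overlap. Oligodendrocyte precursor-like cells, whose marker *Pdgfra* is also made by mesenchyme, had 4468 CPM (3707 to 5338) and 19186 CPM (18506 to 19884) inside the brain. With cells of the brain alone, the class ratios lay between 1.82 in ventral forebrain neuron-like and 2.41 in mural cell-like cells, with mesenchymal cells left out for too few counts.

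Glial, vascular and connective classes had lower levels than the cells around them, as did some neuron classes. Cajal-Retzius cell-like cells had 0.601 times the level around them in the KO and 0.602 times in the control. Subplate or *Slc17a7* cortical neuron-like cells had 0.781 and 0.747 times. In the KO, cells of other classes within 50 µm of endothelial cell-like cells had 17960 CPM on average. The endothelial-like cells themselves had 0.524 times that level in the KO and 0.641 times in the control. Radial glia or astroglia-like cells had 0.709 and 0.829 times, and mesenchymal cell-like cells 0.439 and 0.630 times the level around them. For mural cell-like cells the values were 0.531 and 0.458, for oligodendrocyte precursor-like cells 0.706 and 0.578, and for microglia or macrophage-like cells 0.662 and 0.621, so that the KO had the lower value in some of these classes and the higher in others. In contrast, upper-layer or immature projection neuron-like cells exceeded their surroundings 1.56-fold in the KO and 1.52-fold in the control. The part that molecules of adjoining cells play in the low classes was not tested.

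Within one class, levels could be compared between places. MGE interneuron-like cells, which migrate from the subpallium into the cortex, had 7519 CPM (6539 to 8605) in the pallial region and 7501 CPM (6848 to 8200) in the subpallial area of the control, and 7244 CPM (6547 to 7996) in its *Slc17a6* area, intervals that overlap. In the KO the same places had 34350 CPM (33550 to 35164) and 30480 CPM (30047 to 30919), and the *Slc17a6* area 24610 CPM (24120 to 25107). Their log2 ratios were 2.19 (1.96 to 2.43), 2.02 (1.87 to 2.17) and 1.76 (1.59 to 1.94). Ganglionic eminence progenitor-like cells were higher in the subpallial area, at 7111 CPM (6076 to 8271) and 29952 CPM (29425 to 30485), than in the *Slc17a6* area, at 2715 CPM (2146 to 3388) and 13198 CPM (12790 to 13616).

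Over the pallial depth, deep-layer projection neuron-like cells of the outer zone had 12757 CPM (11677 to 13910) and 54986 CPM (54266 to 55715), above those of the middle zone with 10481 CPM (9827 to 11167) and 47346 CPM (46823 to 47874). Upper-layer or immature projection neuron-like cells of the inner zone had 22865 CPM (20910 to 24953) in the control, overlapping the 19544 CPM (18108 to 21062) of the outer zone. In the KO the inner zone, at 76136 CPM (75083 to 77201), lay below the outer, at 79928 CPM (78744 to 81126). Their log2 ratio in the inner zone, 1.74 (1.59 to 1.88), lay below that of the outer zone, 2.03 (1.90 to 2.16), with intervals that do not overlap.

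Cells with *Sst*, where Cre is made, were compared with others. Cells with at least 2 *Sst* transcripts and *Gad1* or *Gad2*, 208 in the control and 1719 in the KO, had 4749 CPM (3615 to 6126) and 22123 CPM (21654 to 22599), a log2 ratio of 2.22 (1.82 to 2.64). *Lhx6* cells with *Gad1* or *Gad2* but no *Sst* had 1.94 (1.81 to 2.08), and *Tbr1* cells without *Gad1*, *Gad2* or *Sst* had 2.32 (2.26 to 2.38). The interval of the *Sst* cells, which rests on 59 control counts, holds both of the other ratios. In the pallial region alone the ratios were 2.42 (1.74 to 3.19) for *Sst* cells, 2.42 (2.03 to 2.83) for *Lhx6* cells without *Sst* and 2.27 (2.21 to 2.34) for *Tbr1* cells. The level of *Sst* cells was below that of *Lhx6* cells without *Sst* in both sections, 4749 against 7661 CPM in the control and 22123 against 29451 CPM in the KO. These groups rest on transcript counts and were not matched for depth, with which the control level differs. The part of depth in this difference was not tested.

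For the share of cells with *Cd24a*, 25 transcripts were drawn at random from each cell, which left 43884 control and 99572 KO cells and dropped 11347 and 1678 of those over the minimum. Of the thinned cells, 14.1% (13.8 to 14.4) held *Cd24a* in the control section, against 44.6% (44.3 to 44.9) in the KO. Unthinned, the shares were 20.1% and 74.1%. After thinning, 34.8% (33.0 to 36.6) of upper-layer or immature projection neuron-like cells were positive in the control section, against 82.8% (82.1 to 83.6) of those in the KO. The shares were 16.8% (15.5 to 18.2) and 52.4% (51.4 to 53.4) for MGE interneuron-like cells, and 6.22% (5.43 to 7.08) and 21.9% (21.0 to 22.8) for radial glia or astroglia-like cells. In each of these classes the KO share lay above the control share with intervals that do not overlap. Endothelial cell-like cells, most of them inside the brain, had 5.58% (4.18 to 7.27) and 19.2% (17.8 to 20.7), which in the control overlaps the share of the radial glia class. Inside the brain of the KO, the level of endothelial cell-like cells was 13611 CPM (13169 to 14065). That lay above radial glia or astroglia-like cells there, with 10171 CPM (9955 to 10390). Pooled over the brain, the radial glia class is therefore not read as above background in either section. The order of these 2 classes differed by place in the KO. In the subpallial area the radial glia class had 21631 CPM (19905 to 23467) and the endothelial class 15907 CPM (15034 to 16817). In the *Slc17a6* area the values were 8742 CPM (8518 to 8970) and 10532 CPM (9848 to 11252), and in the pallial region the intervals overlapped. In the control the intervals overlapped in each of these places. Mesenchymal cell-like cells, nearly all of them outside the brain and so a low background for it, had 1.61% (1.26 to 2.03) and 3.99% (3.61 to 4.40), and their median depth was 57 and 151 transcripts against 31 and 87 in the upper-layer class. Without thinning, a median KO cell held 6 *Cd24a* transcripts in the upper-layer class, 5 in the deep-layer class, 3 in the MGE class and 1 in the radial glia class, while the control median was 0 in each of the 17 classes.

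The size of the ratio differed between cells of different depth, which also differ in their mix of cell types. In cells with 20 to 29 panel transcripts the whole-section log2 ratio was 2.08 (1.99 to 2.18), and in cells with 75 to 99 it was 3.23 (3.12 to 3.35). The KO level was 34846 and 32637 CPM in these cells, whereas the control level was 8238 and 3470 CPM. In deep-layer projection neuron-like cells alone the ratios of these 2 depths were 2.01 (1.71 to 2.31) and 2.52 (2.22 to 2.82), with overlapping intervals, and in the pallial region 2.12 (1.98 to 2.27) and 2.995 (2.81 to 3.19). In mesenchymal cell-like cells, which are low in *Cd24a* and rich in transcripts, the intervals of all these depths overlapped, with 0.51 (−2.61 to 3.06), on 11 and 3 counts, in the shallowest cells, 2.14 (1.17 to 3.14) in those with 30 to 49 transcripts and 1.60 (0.92 to 2.31) in those with 75 to 99.

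**Figure D5:**
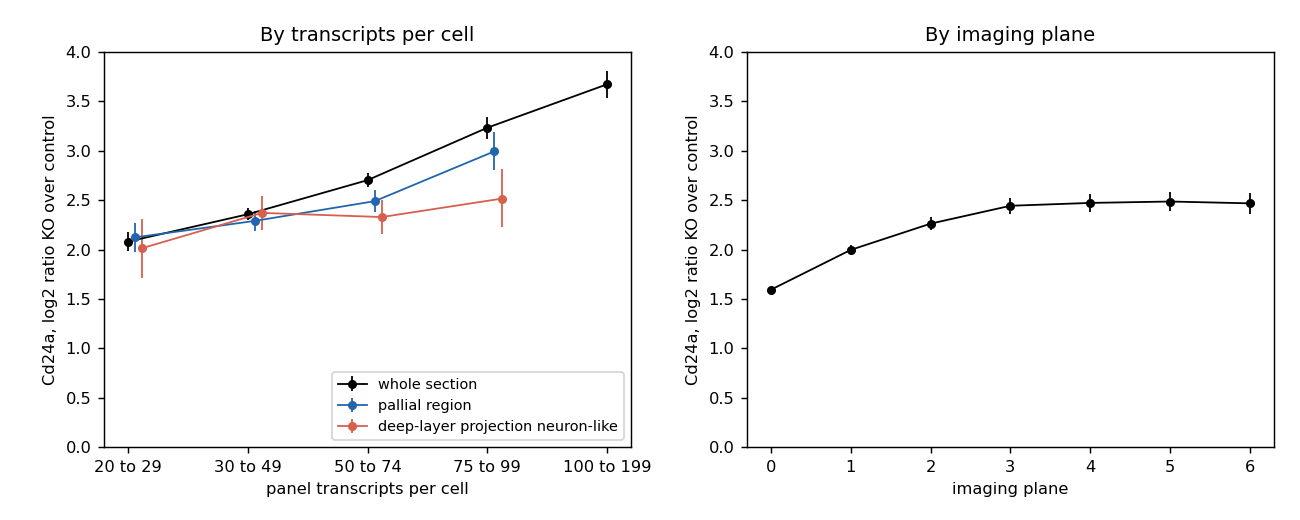
Log2 ratio KO over control of *Cd24a* by panel transcripts per cell (left; whole section, pallial region and deep-layer projection neuron-like cells) and by imaging plane over all decoded molecules (right), with 95% intervals of counting error. The whole-section ratio is 2.08 in the shallowest cells and 3.67 in those with 100 to 199 transcripts, and 1.59 in plane 0 against 2.47 in plane 6.

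The 7 imaging planes, stacked through the section, differed too. Over all decoded molecules, in cells or not, plane 0 had 9577 CPM in the control and 28912 CPM in the KO, a log2 ratio of 1.59 (1.56 to 1.63). Plane 6 had 4281 and 23685 CPM, a log2 ratio of 2.47 (2.36 to 2.57). For every 100 *Cd24a* molecules in plane 0, plane 6 held 10.6 in the control and 35.4 in the KO, against 23.6 and 43.2 for all panel genes. The part of detection in the ratio was not tested. Molecules outside segmented cells had 6279 and 23042 CPM, a log2 ratio of 1.88 (1.82 to 1.93), against 2.01 (1.99 to 2.04) for molecules in cells of any size.

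The genes whose levels over the 17 classes were most like those of *Cd24a* were found by the mean over both sections of Spearman's rho, among the 249 other genes of the more abundant part of the panel. They were *Rbfox1*, a neuronal splicing regulator, with a mean rho of 0.908, *Gpr161* with 0.898, *Igfbpl1* with 0.897, *Tagln3* with 0.864 and the transcription factor gene *Pou3f1*, itself a class marker, with 0.850. The median gene had a mean rho of 0.109. Their own whole-section log2 ratios were 0.45 for *Rbfox1*, 1.40 for *Gpr161*, 0.74 for *Igfbpl1*, 0.93 for *Tagln3* and 0.35 for *Pou3f1*.

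Of 14 known partners and signalling genes of CD24, 0 were on the panel. Other GPI-anchored surface proteins were represented by 6 genes, with a median log2 ratio of 0.81 against 0.13 over the panel, and 3 of them reached 1, as did 4.4% of the panel genes: *Opcml* with 1.21 and *Ntm* with 1.10, which code for related adhesion proteins of the IgLON family, and the netrin-G gene *Ntng1* with 1.01 (0.65 to 1.38). *Ntng1* was not above background, at 45.3 CPM in the control and 90.8 CPM in the KO against the mean blank levels of 99.7 and 97.8 CPM. Of 22 genes for adhesion and guidance at the cell surface, 5 reached 1, *Ntng1* among them, beside the 4.4% of the panel, and the median was 0.39. *Ntng1*, *Ntng2* and *Cdh13* stand in both lists. *Epha3* was highest, followed by the netrin receptor gene *Unc5d*, itself a class marker, with 1.33, the ephrin receptor gene *Epha5* with 1.08, the protocadherin gene *Pcdh7* with 1.05 and *Ntng1*. The lowest was the protocadherin gene *Pcdh8* with −0.89. Of 12 genes of immature neurons, 3 were on the panel: *Igfbpl1* with 0.74, *Nnat* with −0.10 and *Dlk1* with −0.67.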

How the data were processed

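Expression was measured by MERFISH (MERSCOPE, Vizgen Pan Neuro panel; 500 genes and 50 blank barcodes) in 1 control and 1 *Dnmt1* KO section. The authors used the instrument's decoding and segmentation, and the deposited tables give, for each segmented cell, raw counts of each gene's decoded molecules, not normalized. The deposited metadata gave positions and the cell volume, a signal that was used in 1 alternative only, and a list of single molecules gave planes. The segmentation model and a genome build are not given in the sources used here. *Cd24a*, the gene lists and the class markers were chosen with earlier results of these data known.

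A cell entered with 20 or more panel transcripts, and blank barcodes stayed out of totals. Summed counts were scaled to 1000000 panel transcripts (CPM) with exact Poisson 95% intervals. The interval of a log2 ratio pairs opposite ends of both. Shares carry Clopper-Pearson intervals. Places were drawn in bins of 25 µm after Gaussian smoothing (SD 50 µm), from 5 pallial, 12 subpallial and 3 other region genes. Bins with under 1 cell, bins with under 4% of transcripts from these genes and parts under 0.3 mm² were left out. Relative depth is a cell's distance from the outer edge as a part of its summed distance from both edges, and hemispheres were split midway between 2 centres. The smoothing, abundance minimum, removal of rims under 3 bins and hemisphere split were chosen once the maps were known. A cell joined the class whose markers most exceeded their expected number, by Poisson deviance, with at least 3 transcripts from at least 2 markers and 2 times the expected number. Named genes were *Cd24a*, the 5 genes with the highest ratio and the 5 with the most similar class pattern among the more abundant genes (mean CPM at or above the median gene's), and list members, of which those reaching 1, the lowest of the adhesion list and all genes of the shortest list are printed. No doublet caller was run. The alternatives were other minima, thinning, scaling, leaving out the largest cells, molecules outside cells, plane 0, hemispheres, class rules, blank subtraction, the total without *Cd24a* and cells of the brain alone.

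Python 3.11.15, numpy 2.4.6, scipy 1.17.1, pandas 2.3.3 and matplotlib 3.10.9 were used, with blastn 2.17.0 (at least 80% identity) for copies of the transcript. The scripts for ratios and classes were tested on simulated data.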

Additional observations from a re-analysis of the deposited data

How the results depend on the processing

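Under the settings tried, 275 of 275 log2 ratios of *Cd24a* (whole section, places and classes, main values included) were above 0 and 274 were at least 1; the lowest, 0.895, was that of tissue outside the brain in imaging plane 0. All of these ratios recount the same sections, and *Cd24a* was chosen for its high ratio, so their count is a description only. Values are given here for the whole section and then for the pallial region, whose main log2 ratios were 2.15 and 2.12. They were 2.01 and 2.01 with no minimum of transcripts, 2.04 and 2.04 with a minimum of 10, 2.67 and 2.54 with 50, and 2.25 and 2.20 in cells with 20 to 50. Thinning the KO to the mean depth of control cells gave 2.05 and 2.04. All decoded molecules gave 1.99 and 2.001, and imaging plane 0 alone 1.59 and 1.61. Leaving *Cd24a* out of the total gave 2.18 and 2.18. Scaling to the median ratio of the more abundant panel genes gave 2.08 and 2.08. Per cell volume they were 4.20 and 4.30, a scale on which counts are not set against the panel total. Single hemispheres gave 2.22, 2.07, 2.24 and 2.09. Subtraction of blank barcodes and leaving out the largest cells kept both ratios within their intervals. Blank subtraction, the total without *Cd24a* and the cells of the brain alone were settings chosen after seeing the data.

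The distance between the highest and the lowest class ratio, 0.996, moved by less than its counting interval under 12 of 12 alternatives, from 0.496 to 1.52, but the classes at either end changed: assigning every cell by the likelihood of its profile made microglia or macrophage-like cells the lowest, and cells of the brain alone put mural and ventral forebrain cells at the ends. The counting interval of that distance makes no allowance for ends picked from all classes. The log2 fold between the highest and lowest class level was 4.97 in the control and 5.55 in the KO. It was 2.88 and 2.90 inside the brain, where the mesenchymal class had too few counts and the Cajal-Retzius (control) or radial glia (KO) class was lowest, 4.60 in the control with a minimum of 50, and in the KO 4.94 with 20 to 50 transcripts and 5.68 with the stricter class rule.

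The log2 ratio of inner over outer pallial depth was 0.19 in the control and 0.005 in the KO. In cells with 20 to 50 transcripts it was −0.074 (−0.25 to 0.11) and −0.085 (−0.20 to 0.03), intervals that hold 0. In the control it was 0.53 with a minimum of 50, 0.35 over all molecules and 0.34 in plane 0. In the KO it was 0.057 after thinning and 0.056 in plane 0. The share of cells with *Cd24a*, 14.1% and 44.6%, was 18.0% and 60.7% thinned to 50 transcripts, 20.1% and 74.1% unthinned, and 1.86% and 19.0% for at least 2 transcripts. The cause of these shifts was not tested. No paired analysis was possible because each group is 1 section. The number of counts limits the control most. Ventral forebrain neuron-like cells rest on 40 control counts of *Cd24a* and mural cell-like cells on 42.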
